A study of Mus musculus with 8 samples.

Results

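The transcription factor p53 and its target genes were followed in bulk RNA sequencing of mouse cerebellum, with *Atm*-KO mice set against *Atm*-WT mice. The members were *Trp53*, the gene of p53 itself, its regulators *Mdm2* and *Mdm4*, and 33 genes listed as targets of p53 in arrest, death, repair and metabolism, 36 genes of the 56691 listed in the deposited table. They were taken from a list of names, drawn up with earlier results of these data known. Some of them, such as *Sesn3*, *Ccng2*, *Gadd45b* and *Gadd45g*, are also or mainly induced by other factors, FoxO proteins among them. All 36 had counts in every library, at least 21 in the lowest case, and all 36 were among the 22423 genes tested. *Atm*-KO mice were homozygous for the B6;129S4-Atmtm1Bal/J allele (ATM -/-), a germline knockout present in every cell of the animal, and the *Atm*-WT controls (ATM +/+) were littermates from the same line. Each genotype had 4 mice aged 6 months, each with its own library of whole cerebellum frozen after saline perfusion, and no treatment is named for any of them. The mice were labelled 2M, 7M, 13M and 32M in the *Atm*-WT group and 1M, 7F, 11M and 12M in the *Atm*-KO group. Values per mouse are given in that order below, and each ± is the SD over the 4 mice of a genotype.

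ATM is a protein kinase that is activated by DNA double-strand breaks, and it phosphorylates p53 as well as its inhibitors MDM2 and MDMX, the product of *Mdm4*. Phosphorylated p53 escapes degradation and activates genes for cell cycle arrest, apoptosis, DNA repair and metabolism, among them *Mdm2*, which closes a negative feedback loop. This control acts mainly on the p53 protein, which was not measured here, so the level of p53 activity can be followed in RNA only through its targets. Loss of ATM in humans causes ataxia-telangiectasia, in which the cerebellum degenerates.

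p53 binds DNA as a tetramer at the p53 response element, a pair of decamers that each hold the core CNNG. The stretch within 3000 bases of the start of the canonical transcript was searched in GRCm39 for this element in 35 of the members. *Pmaip1* was not searched. Both cores had to be intact, a spacer of at most 1 base was allowed between the decamers, and up to 2 of the other letters could differ from the consensus. The element has the same form on either strand, so 1 pass covered both. The elements of the members that the results turn on are printed 5′ to 3′ on the strand of the gene, with the cores in capitals. They show how close to the consensus the letters near these members were.
Trp53inp1, all letters matched, chr4:11155112-11155132, plus strand: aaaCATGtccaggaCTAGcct
Zmat3, all letters matched, chr3:32418480-32418499, minus strand: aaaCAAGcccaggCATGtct
Cdkn1a, 1 letter off, chr17:29309902-29309921, plus strand: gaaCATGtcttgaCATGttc
Ccng1, 1 letter off, chr11:40645763-40645782, minus strand: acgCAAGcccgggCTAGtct
Ccng1, 1 letter off, chr11:40646289-40646308, minus strand: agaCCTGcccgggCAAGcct
Perp, 2 letters off, chr10:18718782-18718801, plus strand: attCTAGcccaggCTTGccc
Fas, 2 letters off, chr19:34269764-34269783, plus strand: gggCATGtacaaaCATGtca
Plk2, 2 letters off, chr13:110529416-110529435, plus strand: caaCATGcccgggCTTGcat
Plk2, 2 letters off, chr13:110530928-110530947, plus strand: gatCTTGcttagaCTTGttg

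Counted in bases from the start of the canonical transcript, the *Trp53inp1* element lay at -1290, in an exon of the neighbouring transcript Gm69016, and the *Zmat3* element at 1419, in an exon of *Zmat3*. The *Cdkn1a* element lay at -2827, in an exon of Gm64878. The *Ccng1* elements lay at 366, in an intron, and at -160, in an exon of Gm57413. The *Fas* element was in an intron, at 1714. The *Perp* element, at -1924, and both *Plk2* elements, at -1590 and -78, were in no annotated gene. Elements with all letters matched were found for 2 of 35 members (5.71%) and for 47 of 14887 protein-coding genes searched (0.316%). The genes searched include the members and are fewer than the 15322 protein-coding genes tested. With at most 1 letter off the shares were 4 of 35 (11.4%) and 410 (2.75%), and with at most 2 letters off 10 of 35 (28.6%) and 2217 (14.9%). *Bax*, *Eda2r* and *Pidd1* also held elements with 2 letters off, and *Zmat3* held a second that overlapped its first. A match of letters is a description of the sequence and does not show that p53 was bound there.

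Total counts per library ranged from 65967130 to 88030300. Low counts, from 1 to 50, were even numbers in 67.3% to 73.3% of cases, depending on the library, so a count may stand for a read rather than a read pair. Levels are given as CPM, the standard depth-scaled count, computed with TMM factors, and per kilobase of the canonical transcript where genes are compared. *Atm*, on chr9:53348097-53448236, had 67.6, 80.0, 79.4 and 59.0 CPM in *Atm*-WT mice and 51.1, 44.3, 41.1 and 44.9 CPM in *Atm*-KO mice (log2 fold change -0.66 ± 0.10 SE, adjusted p = 0.0775). The genotypes did not overlap, and reads of *Atm* remained in every *Atm*-KO library, where counts over the whole gene cannot tell a normal transcript from that of the altered allele. Markers of granule cells (summed level 3287 to 4122 CPM) and Purkinje cells (7501 to 9486 CPM) were high in all 8 libraries. In its group *Atm*-WT 32M had the highest summed level of oligodendrocyte markers and the lowest of RNAs kept in the nucleus, and *Atm*-KO 12M had the lowest summed level of oligodendrocyte markers. Mouse 7F was the only one labelled F.

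No member passed the test between genotypes. The adjusted p of the 36 members, from edgeR's quasi-likelihood test and corrected over all genes tested by the Benjamini-Hochberg method, ranged from 0.116 to 0.997, while 0.0178% of all genes tested (4 of 22423) had an adjusted p under 0.05. At an unadjusted p under 0.05, 8 members (22.2%) were lower in *Atm*-KO cerebellum and 3 (8.33%) were higher. The lower members were *Cdkn1a*, *Ccng1*, *Plk2*, *Pmaip1*, *Fas*, *Perp*, *Sesn1* and *Sesn3*, and the higher ones *Mdm4*, *Ddb2* and *Fdxr*. Over all genes tested the shares at that p were 8.48% lower and 11.7% higher. Over protein-coding genes alone, the class of all members, they were 11.7% lower and 7% higher. DESeq2 gave 7.49% of the genes it tested an adjusted p under 0.05 (1552 of 20724), and among the members *Perp* (adjusted p = 0.0163) and *Pmaip1* (adjusted p = 0.0392), both lower. No member passed by limma voom.

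The differences of the members were mostly small and leaned to the lower side. In *Atm*-KO mice 28 members had a lower fitted level and 8 a higher one, and their log2 fold changes had a median of -0.14. Over all genes tested the median was -0.018 and that of protein-coding genes -0.061, of which 63.8% were lower, so part of this lean was shared by protein-coding genes in general. With scaling by library size alone the median of the members was -0.094. The number of higher members was 12 in place of 8 with that scaling, with protein-coding genes alone and without *Atm*-WT 13M. In 4 members the mice of the genotypes did not overlap, all lower in *Atm*-KO mice (*Ccng1*, *Pmaip1*, *Perp* and *Sesn1*). Over all genes tested, 5.12% did not overlap with *Atm*-KO mice lower and 6.47% with *Atm*-KO mice higher. Without *Atm*-WT 13M, the mouse with the highest *Cdkn1a*, *Pmaip1*, *Fas* and *Sesn1*, only 4 members were lower at an unadjusted p under 0.05 in place of 8.

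**Figure D1:**
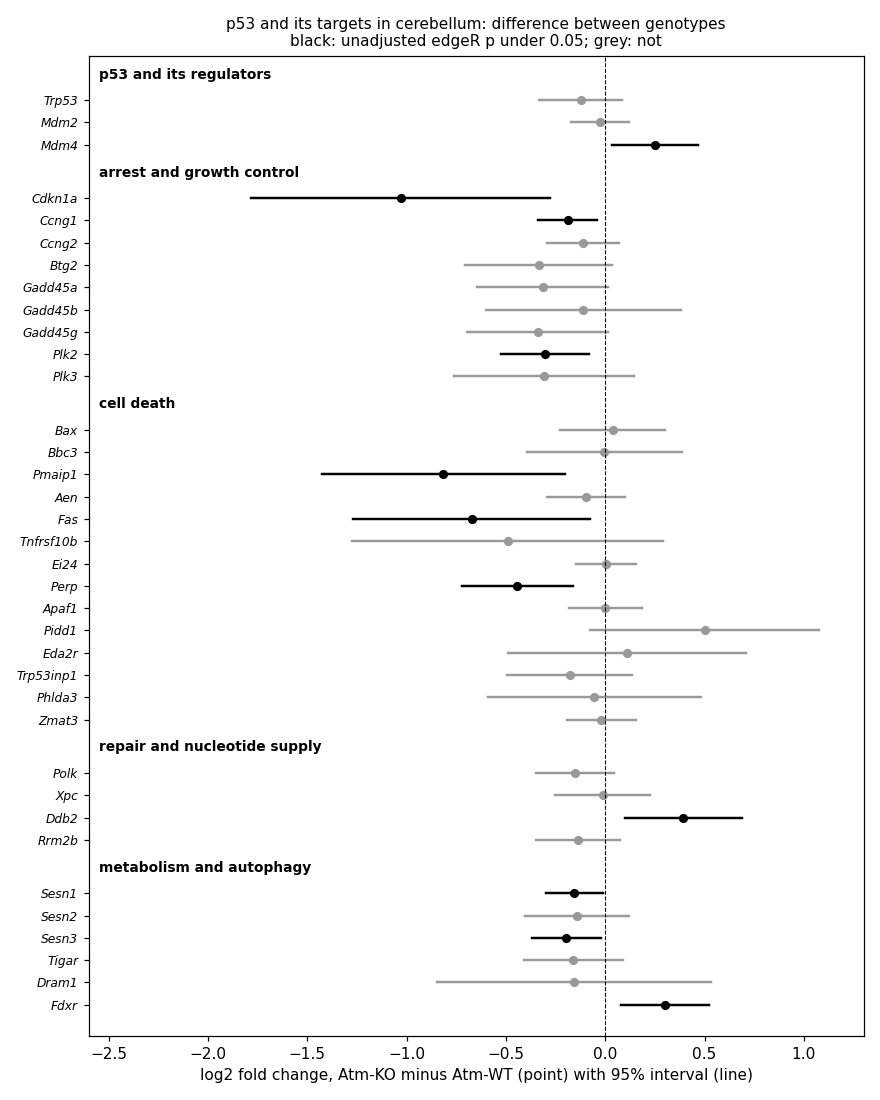
Log2 fold change of each member between *Atm*-KO and *Atm*-WT cerebellum (horizontal axis, point) with its 95% interval (line) from edgeR, grouped by role. Black marks the 11 members with an unadjusted p under 0.05, 8 to the left of 0 and 3 to the right, and the widest black interval is that of *Cdkn1a*.

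In absolute terms the members spanned a wide range of RNA levels. Per kilobase, the highest in *Atm*-WT cerebellum were *Sesn3* with 42.4 ± 2.93 CPM, *Sesn1* with 35.4 ± 2.75 CPM, *Ei24* with 33.6 ± 2.87 CPM and *Ccng2* with 27.5 ± 1.45 CPM. *Sesn1* and *Ei24* differed by less than their spread, as did *Zmat3* (25.4 ± 2.66 CPM) and *Ccng1* (25.3 ± 1.76 CPM), which came next. *Mdm4* stood at 18.4 and *Mdm2* at 15.7 CPM per kilobase, above *Trp53* itself at 5.82. The lowest were *Pidd1* (0.237), *Tnfrsf10b* (0.234), *Eda2r* (0.185) and *Dram1* (0.168 CPM per kilobase), the first 3 of them mediators of death signalling and the last a membrane protein of autophagy. In bulk tissue a lower level from fewer cells of a type cannot be told apart from less RNA per cell.

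**Figure D2:**
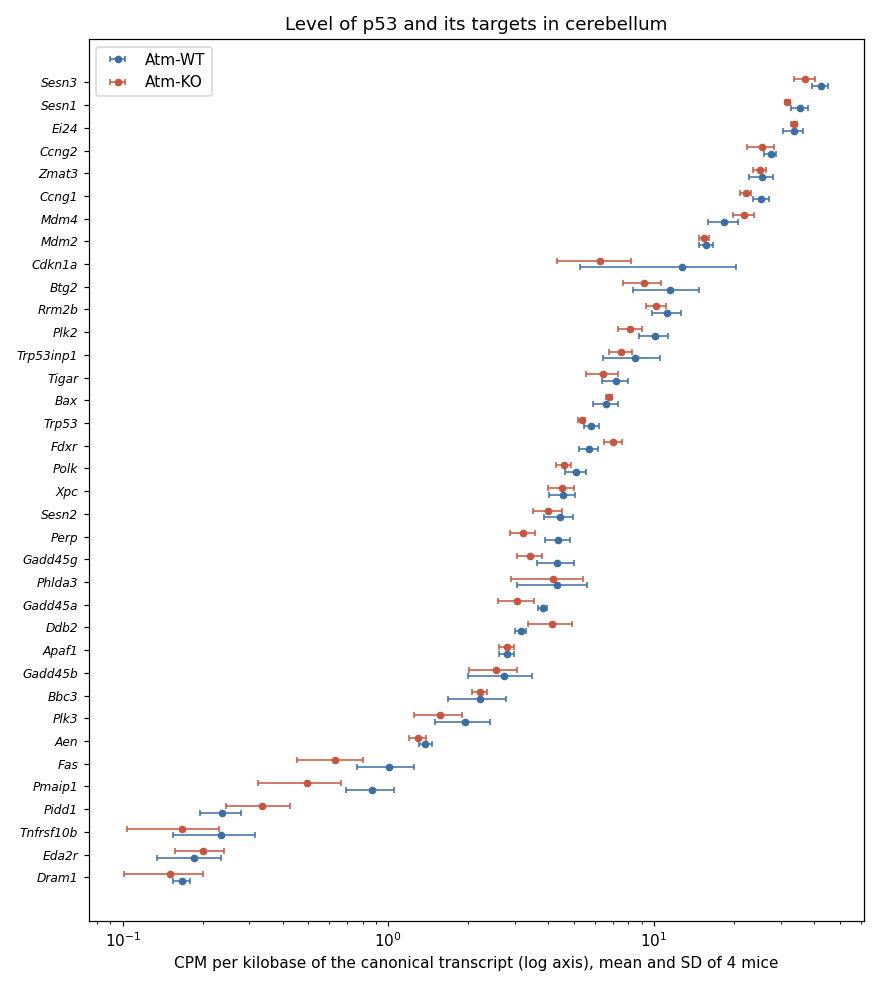
Level of each member in CPM per kilobase of its canonical transcript (horizontal log axis), with the mean and SD of 4 *Atm*-WT mice (blue) and 4 *Atm*-KO mice (red), ordered by the *Atm*-WT mean. *Sesn3* is at the top with 42.4 and *Dram1* at the bottom with 0.168, and the genotypes are farthest apart in *Cdkn1a* (12.8 and 6.27), *Pmaip1* (0.871 and 0.494) and *Fas* (1.01 and 0.630).

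*Trp53* and *Mdm2* were at nearly the same level in both genotypes. *Trp53* (ENSMUSG00000059552, chr11:69469669-69482701) had 11.4, 11.3, 9.95 and 10.4 CPM in *Atm*-WT mice and 9.50, 9.89, 10.05 and 10.07 CPM in *Atm*-KO mice. The genotypes overlapped, and the means were 10.8 ± 0.691 and 9.88 ± 0.261 CPM (log2 fold change -0.12 ± 0.10 SE, adjusted p = 0.495, 95% interval -0.33 to 0.086). *Trp53* shares 263 exon bases with *Wrap53* on the opposite strand, which was at 10.1 and 10.4 CPM, and whether the counting used strand is not stated. *Mdm2* (ENSMUSG00000020184, chr10:117524780-117546730), the ubiquitin ligase that degrades p53 and is its target, had 48.2, 51.7, 49.8 and 45.0 CPM in *Atm*-WT mice and 50.9, 46.0, 47.1 and 47.1 CPM in *Atm*-KO mice. All *Atm*-KO values lay within the range of *Atm*-WT mice. The log2 fold change of *Mdm2* was -0.03 ± 0.066 SE (adjusted p = 0.855), with an interval of -0.17 to 0.12, and it was 0.024 with scaling by library size alone.

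*Mdm4* (ENSMUSG00000054387, chr1:132887222-132958299), whose product blocks the transactivation domain of p53, had the higher mean in *Atm*-KO mice. Its levels were 133, 142, 141 and 106 CPM in *Atm*-WT mice and 169, 136, 155 and 161 CPM in *Atm*-KO mice. *Atm*-KO 7F lay below 2 of the *Atm*-WT mice, and *Atm*-WT 32M was the lowest of all. *Malat1*, a noncoding RNA kept in the nucleus, was likewise highest in *Atm*-KO 1M and 12M (12860 and 13104 CPM) and lowest in *Atm*-WT 32M (3631 CPM), and its part in the difference of *Mdm4* was not tested. The log2 fold change was 0.25 ± 0.098 SE (adjusted p = 0.189), and it was 0.15 without *Atm*-WT 32M and *Atm*-KO 12M.

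Among the 9 members of arrest and growth control, all had a lower fitted level in *Atm*-KO cerebellum, with a median of -0.31 in log2 fold change. Of them, 3 (33.3%) had an unadjusted p under 0.05. Of protein-coding genes, 63.8% had a lower fitted level and 11.7% were lower at that p. The summed level of these 9 members was 252.9 to 298.7 CPM in *Atm*-WT mice and 221.2 to 237.4 CPM in *Atm*-KO mice. *Ccng1* and *Ccng2* were the highest of them, at 88.8 and 77.4 CPM in *Atm*-WT mice. Sums of metabolism and autophagy did not overlap either (502 to 561 and 431 to 499 CPM). Those of cell death (386 to 434 and 380 to 404 CPM), of repair and nucleotide supply (94.8 to 103.6 and 92.9 to 97.1 CPM) and of p53 and its regulators (161 to 205 and 192 to 230 CPM) overlapped. *Cdkn1a* (ENSMUSG00000023067, chr17:29309936-29319701) encodes p21, the inhibitor of cyclin-dependent kinases through which p53 arrests the cell cycle. It had 24.0, 16.8, 45.1 and 12.5 CPM in *Atm*-WT mice and 11.7, 17.5, 9.74 and 9.33 CPM in *Atm*-KO mice. *Atm*-WT 13M was far above the others, and *Atm*-KO 7F lay above *Atm*-WT 7M and 32M. The log2 fold change, -1.03 ± 0.34 SE (adjusted p = 0.146), had the largest size of all members with every mouse in the fit. It was -0.54 without *Atm*-WT 13M, where *Pmaip1* at -0.66 was larger in size, and -1.25 without *Atm*-WT 32M. On the opposite strand *Dino*, a noncoding RNA of the p53 pathway that shares 504 exon bases with *Cdkn1a*, was at 0.212 and 0.106 CPM.

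Genes of the glucocorticoid response were set beside *Cdkn1a*. *Fkbp5*, a cochaperone of the glucocorticoid receptor and its target, had 30.9, 14.8, 58.4 and 16.1 CPM in *Atm*-WT mice and 12.7, 16.5, 11.5 and 7.55 CPM in *Atm*-KO mice. For both genes *Atm*-WT 13M was highest, *Atm*-WT 2M second and *Atm*-KO 12M lowest. Other genes of that list had other orders, such as *Mt1*, a metallothionein gene, with 48.7 CPM in *Atm*-WT 2M and 38.6 CPM in *Atm*-WT 13M. All 8 glucocorticoid response genes listed had a lower fitted level in *Atm*-KO mice. Against 11.7% of protein-coding genes, 7 of these 8 genes (87.5%) were lower at an unadjusted p under 0.05. Their summed level was 458.9 to 833 CPM in *Atm*-WT mice and 253 to 424 CPM in *Atm*-KO mice, and none of them was at 0. Their part in the difference of *Cdkn1a* was not tested.

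*Ccng1* and *Plk2* showed differences of smaller size. *Ccng1* (ENSMUSG00000020326, chr11:40639377-40646148), the cyclin G1 gene, whose product takes part in the feedback on p53 through MDM2, had 81.8, 85.3, 94.0 and 94.0 CPM in *Atm*-WT mice and 81.0, 79.1, 79.1 and 72.1 CPM in *Atm*-KO mice. The genotypes did not overlap, though *Atm*-WT 2M and *Atm*-KO 1M were close to each other (log2 fold change -0.19 ± 0.068 SE, adjusted p = 0.164). *Plk2* (ENSMUSG00000021701, chr13:110531015-110537379), a polo-like kinase that neurons also induce on activity, had 33.4, 29.995, 32.3 and 39.9 CPM in *Atm*-WT mice and 28.4, 25.2, 31.0 and 25.2 CPM in *Atm*-KO mice. Only *Atm*-KO 11M reached into the *Atm*-WT range (log2 fold change -0.30 ± 0.10 SE, adjusted p = 0.146). Without *Atm*-WT 32M and *Atm*-KO 12M together the log2 fold change of *Plk2* was -0.18 and that of *Ccng1* -0.13.

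The other members of this group had an unadjusted p of at least 0.05. *Btg2*, an antiproliferative gene that is also an immediate early gene, had 44.7 CPM in *Atm*-WT 32M, 26.4 to 28.0 CPM in the other *Atm*-WT mice and 20.7 to 29.1 CPM in *Atm*-KO mice (log2 fold change -0.34 ± 0.17 SE). *Gadd45a* (-0.31 ± 0.15 SE) and *Gadd45g* (-0.34 ± 0.16 SE), which encode growth arrest proteins induced by stress, had unadjusted p of 0.0601 and 0.0576, while *Gadd45b* was at -0.11 ± 0.22 SE. *Gadd45a* shares 990 exon bases with E230016M11Rik on the opposite strand, which was at 7.17 and 8.79 CPM (log2 fold change 0.29), above *Gadd45a* at 4.70 and 3.78 CPM. In all, 18 of the 36 members share exon bases with a gene on the opposite strand, and their reads cannot be told apart if the counting did not use strand. *Ccng2*, the cyclin G2 gene, was at -0.11 ± 0.083 SE and *Plk3* at -0.31 ± 0.21 SE. *Atm*-WT 32M, high in *Btg2* and *Plk2*, was also the highest mouse in *Fos* (31.1 CPM against 5.21 to 21.3 CPM) and *Junb* (14.1 CPM against 4.69 to 8.02 CPM). Of 10 immediate early genes listed, 9 had a lower fitted level in *Atm*-KO mice. Against 11.7% of protein-coding genes, 5 of the 10 (50%) were lower at an unadjusted p under 0.05. The summed level of the 10 genes was 144.5 to 206.5 CPM in *Atm*-WT mice and 89.3 to 138.9 CPM in *Atm*-KO mice. Their part in the differences of *Btg2* and *Plk2* was not tested.

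**Figure D3:**
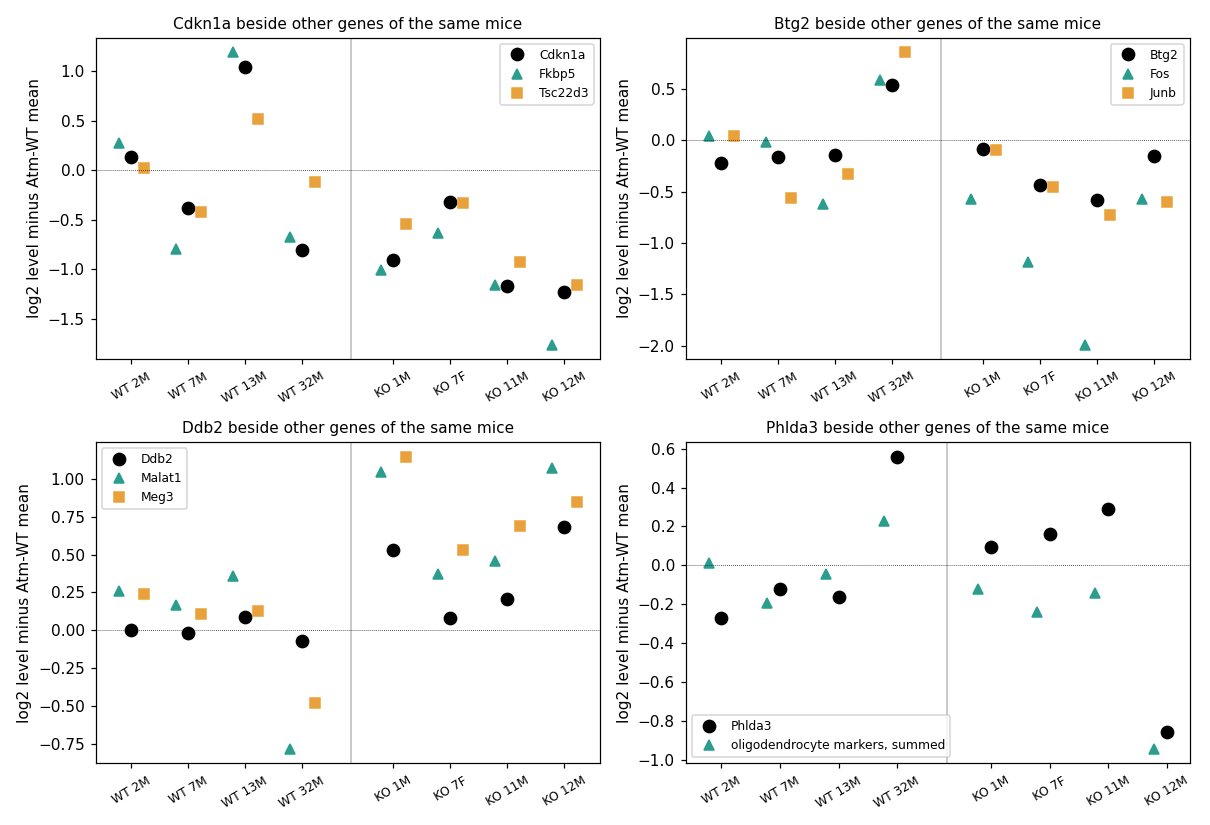
Level in each mouse as log2 of CPM minus the *Atm*-WT mean (vertical axis) for *Cdkn1a*, *Btg2*, *Ddb2* and *Phlda3* (black circles), each beside other genes or a summed marker list measured in the same mice (triangles and squares). *Atm*-WT 13M is high in *Cdkn1a* and *Fkbp5*, *Atm*-WT 32M is high in *Btg2*, *Fos* and *Junb* and low in *Malat1* and *Meg3*, and *Atm*-KO 12M is low in *Phlda3* and oligodendrocyte markers.

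Of the 14 members of cell death, 3 (21.4%) were lower in *Atm*-KO mice at an unadjusted p under 0.05, against 11.7% of protein-coding genes. *Bax*, *Bbc3* and *Apaf1*, effectors of the mitochondrial route of apoptosis, had nearly equal means. The median log2 fold change of the 14 members was -0.037. *Bax* (ENSMUSG00000003873, chr7:45111015-45116325), the pore former of the mitochondrial outer membrane, had 7.15, 6.13, 5.61 and 6.83 CPM in *Atm*-WT mice and 6.72, 6.35, 6.62 and 6.69 CPM in *Atm*-KO mice. All *Atm*-KO values lay inside the *Atm*-WT range (log2 fold change 0.04 ± 0.12 SE, adjusted p = 0.894, 95% interval -0.23 to 0.30). *Bbc3*, which encodes the BH3-only protein PUMA, had means of 5.97 and 5.95 CPM, with an interval of -0.39 to 0.38. The intervals were narrower for *Apaf1*, the scaffold of the apoptosome (18.5 CPM in both genotypes, -0.18 to 0.18), for *Ei24*, a membrane protein of the endoplasmic reticulum (84.4 and 84.6 CPM, -0.15 to 0.15), and for *Zmat3*, a zinc finger RNA-binding protein (200 and 198 CPM, -0.19 to 0.16). *Ei24* lies on the same chromosome as *Atm*, at a distance of 16.6 Mb. The intervals of *Bax*, *Bbc3*, *Apaf1*, *Ei24* and *Zmat3* all leave out a log2 difference of 0.5 in either direction. *Zmat3* was among the members with a fully matched element.

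*Pmaip1* (ENSMUSG00000024521), the gene of the BH3-only protein NOXA, had 2.40, 2.06, 3.05 and 2.01 CPM in *Atm*-WT mice and 1.59, 1.73, 1.39 and 0.681 CPM in *Atm*-KO mice. No mouse of either genotype reached into the range of the other (log2 fold change -0.82 ± 0.28 SE, adjusted p = 0.152). *Atm*-KO 12M was the lowest, and without it the log2 fold change was -0.60. *Fas* (ENSMUSG00000024778, chr19:34268001-34305173), a death receptor, had 1.72, 1.33, 1.88 and 1.07 CPM in *Atm*-WT mice and 1.14, 1.17, 0.800 and 0.637 CPM in *Atm*-KO mice. *Atm*-WT 32M lay below 2 of the *Atm*-KO mice (log2 fold change -0.67 ± 0.27 SE, adjusted p = 0.20).

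*Perp* (ENSMUSG00000019851, chr10:18720715-18732821), a membrane protein of desmosomes and an effector of p53, had the smallest p of all members. It had 9.13, 9.85, 8.39 and 7.67 CPM in *Atm*-WT mice and 6.07, 7.42, 6.45 and 5.83 CPM in *Atm*-KO mice. The genotypes did not overlap, *Atm*-KO 7F coming closest to *Atm*-WT 32M (log2 fold change -0.44 ± 0.13 SE, adjusted p = 0.116). Over the alternative settings its log2 fold change lay between -0.50 and -0.39 and its adjusted p between 0.0163 and 0.312. The summed level of 5 choroid plexus markers, genes of an epithelium, was 764 to 1527 CPM in *Atm*-WT mice and 414 to 1190 CPM in *Atm*-KO mice. By mouse it was 1527, 1408, 764 and 955 CPM in *Atm*-WT mice and 414, 932, 758 and 1190 CPM in *Atm*-KO mice. The *Atm*-WT mice with the highest sums, 2M and 7M, also had the highest *Perp*, and among *Atm*-KO mice 1M, 11M and 7F had the same order in both, while 12M had the highest sum and the lowest *Perp*. Markers of microglia summed to 122.8 to 158.4 and 95.8 to 126.1 CPM, and those of endothelial cells to 209.4 to 230.1 and 168.7 to 217.7 CPM, both lowest in *Atm*-KO 12M, where *Pmaip1*, *Fas* and *Perp* were also lowest. Their part in these differences was not tested.

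**Figure D4:**
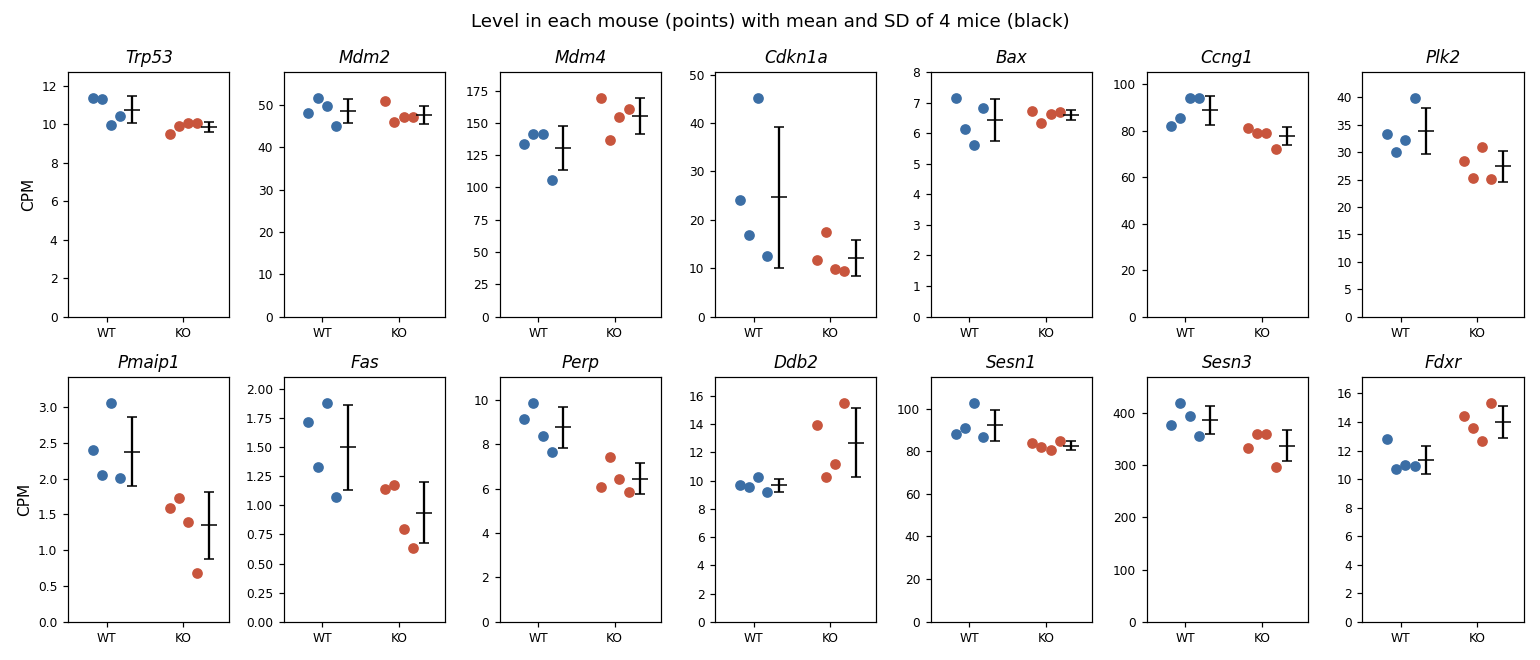
Level in CPM (vertical axis, from 0) of 14 members in each of 4 *Atm*-WT mice (blue points) and 4 *Atm*-KO mice (red points), with the mean and SD of each genotype (black). *Ccng1*, *Pmaip1*, *Perp* and *Sesn1* show no overlap between genotypes, while *Cdkn1a* spreads from 12.5 to 45.1 CPM among *Atm*-WT mice.

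The remaining members of cell death had an unadjusted p of at least 0.05. *Trp53inp1*, a cofactor of p53 in stress and the other member with a fully matched element, had 41.7 to 71.6 CPM in *Atm*-WT mice and 42.8 to 51.8 CPM in *Atm*-KO mice (log2 fold change -0.18 ± 0.14 SE), and *Atm*-WT 13M was again the highest. *Aen*, an apoptosis-enhancing nuclease, was at -0.098 ± 0.089 SE. The receptors *Tnfrsf10b* (-0.49 ± 0.36 SE) and *Eda2r* (0.11 ± 0.27 SE) and the death domain gene *Pidd1* (0.50 ± 0.26 SE) were near or below 1 CPM with wide errors. *Phlda3*, an inhibitor of AKT, had 14.2 CPM in *Atm*-WT 32M, 7.98 to 8.87 CPM in the other *Atm*-WT mice, 10.3 to 11.8 CPM in 3 *Atm*-KO mice and 5.33 CPM in *Atm*-KO 12M (log2 fold change -0.055 ± 0.24 SE). The summed level of 5 oligodendrocyte markers was likewise highest in *Atm*-WT 32M (3853 CPM) and lowest in *Atm*-KO 12M (1711 CPM), against 2788 to 3321 CPM in the other mice. Its part in the spread of *Phlda3* was not tested.

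Of the 4 members of DNA repair and nucleotide supply, 1 (25%) was higher in *Atm*-KO mice at an unadjusted p under 0.05, against 7% of protein-coding genes. *Ddb2* (ENSMUSG00000002109, chr2:91040809-91078878), which recognizes ultraviolet lesions in nucleotide excision repair, had 9.67, 9.54, 10.3 and 9.20 CPM in *Atm*-WT mice and 13.9, 10.2, 11.2 and 15.5 CPM in *Atm*-KO mice. *Atm*-KO 1M and 12M were well above all *Atm*-WT mice, and *Atm*-KO 7F lay within their range (log2 fold change 0.39 ± 0.13 SE, adjusted p = 0.151). The log2 fold change was 0.26 without *Atm*-WT 32M and *Atm*-KO 12M. *Ddb2* shares 1617 exon bases with *Acp2* on the opposite strand, which was at 71.5 and 72.0 CPM. How reads of the shared bases were counted is not stated, so they may have been added to *Ddb2* or left out. *Malat1* was also highest in *Atm*-KO 12M (13104 CPM) and 1M (12860 CPM), against 8095 and 8572 CPM in *Atm*-KO 7F and 11M and 3631 to 7989 CPM in *Atm*-WT mice. All 7 listed RNAs that are kept in the nucleus had a higher fitted level in *Atm*-KO mice, with a summed level of 4792 to 9529 CPM in *Atm*-WT mice and 10049 to 15654 CPM in *Atm*-KO mice. Their part in the difference of *Ddb2* was not tested. *Xpc*, the damage sensor that acts with *Ddb2*, had means of 16.6 and 16.4 CPM (log2 fold change -0.014 ± 0.11 SE), the bypass polymerase gene *Polk* was at -0.15 ± 0.089 SE, and *Rrm2b*, a subunit of ribonucleotide reductase, at -0.14 ± 0.097 SE.

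Among the 6 members of metabolism and autophagy, 2 sestrin genes (33.3%) were lower and *Fdxr* (16.7%) was higher at an unadjusted p under 0.05. Of protein-coding genes, 11.7% were lower and 7% higher at that p. Sestrins are stress proteins that restrain the kinase mTORC1. *Sesn1* (ENSMUSG00000038332, chr10:41685931-41784423) had 88.2, 91.1, 102 and 86.6 CPM in *Atm*-WT mice and 83.7, 81.8, 80.3 and 84.7 CPM in *Atm*-KO mice. The genotypes did not overlap, with a gap between *Atm*-WT 32M and *Atm*-KO 12M that was smaller than the SD of *Atm*-WT mice, 7.14 CPM (log2 fold change -0.16 ± 0.065 SE, adjusted p = 0.212), and without *Atm*-WT 13M the log2 fold change was -0.085. *Sesn3* (ENSMUSG00000032009, chr9:14186363-14244397) had 378, 419, 395 and 356 CPM in *Atm*-WT mice and 333, 360, 361 and 297 CPM in *Atm*-KO mice. *Atm*-KO 7F and 11M lay just above *Atm*-WT 32M (log2 fold change -0.20 ± 0.080 SE, adjusted p = 0.203). *Sesn3* is on the same chromosome as *Atm*, 39.1 Mb away. *Sesn2*, the third sestrin gene, was at -0.14 ± 0.12 SE.

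*Fdxr* (ENSMUSG00000018861, chr11:115158844-115168006), the mitochondrial ferredoxin reductase, had 12.8, 10.7, 10.97 and 10.9 CPM in *Atm*-WT mice and 14.4, 13.6, 12.7 and 15.3 CPM in *Atm*-KO mice. *Atm*-WT 2M and *Atm*-KO 11M met at the boundary, and all others were apart (log2 fold change 0.30 ± 0.10 SE, adjusted p = 0.146). *Tigar*, a fructose bisphosphatase that slows glycolysis, had means of 26.4 and 23.7 CPM (log2 fold change -0.16 ± 0.11 SE). *Dram1* was at -0.16 ± 0.31 SE and at most 0.580 CPM in any mouse.

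Further lists of the pathway were described in the same way. Of 25 further regulators, 24 were tested and 0 passed at an adjusted p under 0.05 by edgeR, DESeq2 or limma voom. At an unadjusted edgeR p under 0.05, 5 were lower (20.8%) and 1 was higher (4.17%), against 11.7% and 7% of protein-coding genes. The median log2 fold change of the regulators was -0.10, and that of protein-coding genes -0.061. *Ppm1d*, the phosphatase WIP1 that reverses ATM phosphorylation and is itself a target of p53, had 82.0, 78.2, 85.6 and 72.7 CPM in *Atm*-WT mice and 73.0, 66.04, 59.96 and 67.6 CPM in *Atm*-KO mice (log2 fold change -0.26 ± 0.076 SE, adjusted p = 0.12). *Atm*-KO 1M lay just above *Atm*-WT 32M, and the other *Atm*-KO mice below the range of *Atm*-WT mice. *Ppp1r13b*, which encodes the p53 cofactor ASPP1, was at -0.26 ± 0.091 SE (adjusted p = 0.155). *Atr*, the sister kinase of ATM, had 39.6, 44.7, 49.0 and 38.2 CPM in *Atm*-WT mice and 55.0, 45.1, 50.2 and 54.8 CPM in *Atm*-KO mice (log2 fold change 0.26 ± 0.094 SE, adjusted p = 0.169). *Prkdc*, the catalytic subunit of DNA-PK, was at 0.19 ± 0.095 SE (adjusted p = 0.298). *Cdkn2a* was too low to be tested.

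Of 30 further targets, 28 were tested and 0 passed at an adjusted p under 0.05 by edgeR or limma voom. By DESeq2 2 passed, *Abhd4* and *Cd82*, both lower, where 7.49% of all genes that it tested passed. At an unadjusted edgeR p under 0.05, 4 further targets (14.3%) were lower, near the 11.7% of protein-coding genes, and 0 were higher, against 7%. The median log2 fold change of the further targets was -0.18, and that of protein-coding genes -0.061. *Abhd4*, a lipase of the N-acylethanolamine pathway, had 55.2, 51.4, 53.2 and 54.4 CPM in *Atm*-WT mice and 44.4, 44.2, 43.9 and 36.9 CPM in *Atm*-KO mice. The genotypes were well apart, and its adjusted p of 0.0931 (log2 fold change -0.34 ± 0.073 SE) was below that of any of the 36 members. The further targets with the smallest p on the higher side were *Tsc2* (0.11 ± 0.076 SE, adjusted p = 0.419) and *Siva1* (0.22 ± 0.16 SE, adjusted p = 0.464). *Psrc1* and *Ptprv* were too low to be tested. Markers of dividing cells summed to 0.90 to 1.84 CPM in *Atm*-WT mice and 0.98 to 2.14 CPM in *Atm*-KO mice, so the arrest genes were read in a tissue with few dividing cells.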

How the data were processed

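Frozen cerebellum was sequenced by Novogene on an Illumina HiSeq platform. The authors used FastQC 0.11.9 for quality control, STAR for alignment to GRCm39 and featureCounts for counting. They deposited raw counts per gene, without normalization. The paper names a GENCODE release, and the strand and pair settings of the counting are not given in the sources used here. Positions came from GENCODE vM39, which matched 56017 of 56691 identifiers (98.8%).

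Libraries were grouped by labelled genotype, and which mice shared a litter is not given in the sources used here. At the smallest library total, 65967130, a level of 1 CPM still means more than 50 counts. Genes kept by filterByExpr were TMM-normalized and fitted without covariates with glmQLFit and glmQLFTest of edgeR 4.0.16 in R 4.3.3. Tests were two-sided, with Benjamini-Hochberg adjustment over the 22423 genes tested and a threshold of 0.05. Intervals are 95% intervals of the fitted log2 fold change. The summed levels of 15 marker and stress lists were compared by two-sided exact permutation tests. The smallest p that 4 against 4 mice allow, 0.0286, was reached by 3 lists (glucocorticoid response, immediate early genes and RNAs kept in the nucleus). Each had a Benjamini-Hochberg adjusted p of 0.143 over the 15 lists. These lists too were chosen with earlier results of these data known, so their p carry no weight as support for a difference. The procedure was tested on simulated data.

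The members and lists were chosen with earlier results of these data known, so no test was made over the members or the further p53 pathway lists. Values per mouse are given for *Trp53*, *Mdm2*, *Mdm4*, *Cdkn1a*, *Bax*, *Ccng1* and every member with an unadjusted p under 0.05 or no overlap. Of the further lists, the genes with the smallest p in each direction are named, except for a gene that is not reported here. Genes set beside members to show a shared pattern over mice (*Fkbp5*, *Tsc22d3*, *Fos*, *Junb*, *Malat1*, *Meg3*) were picked from their lists after their values were seen. Alternatives were DESeq2 1.42.0, limma voom 3.58.1, a surrogate variable from sva 3.50.0, other scalings and filters, halved counts and each library left out. No paired analysis was possible because the labels pair no mice.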

Additional observations from a re-analysis of the deposited data

Results flagged for a closer look

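Each member was examined in each genotype for a mouse that stood apart from the other 3 by Dixon's criterion, which chance meets in about 1 of 20 groups. Of 72 groups, 5 met it, where 3.60 are expected by chance. *Btg2* had 44.7 CPM in *Atm*-WT 32M, against 26.4 to 28.0 CPM in the other *Atm*-WT mice. *Phlda3* had 14.2 CPM in the same mouse, against 7.98 to 8.87 CPM. *Gadd45b* had 4.25 CPM in *Atm*-KO 12M, against 2.80 to 2.99 CPM in the other *Atm*-KO mice. *Pidd1* had 1.003 CPM in *Atm*-WT 2M, against 0.711 to 0.739 CPM in its group, and *Fdxr* had 12.8 CPM in the same mouse, against 10.7 to 10.97 CPM. *Atm*-WT 32M and *Atm*-KO 12M, which hold 3 of the 5 values, are also the mice with the highest and the lowest summed level of oligodendrocyte markers, 3853 and 1711 CPM. The causes were not tested.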

How the results depend on the processing

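With 4 mice per genotype, precision is limited by their number, and a low member such as *Dram1* had an interval wider than a log2 unit. Of 378 values under an alternative, 347 were labelled the same. For a fold change this means the same direction and side of the threshold, whatever its size. *Cdkn1a*, at -1.0294 with all mice and -0.5427 without *Atm*-WT 13M, was thus labelled the same. For a count it means a ratio of at most 1.5, and for the median a shift within the spread between mice. Over all genes, 4 were called, against 2 with protein-coding genes alone, 591 without a filter on low counts, 1552 by DESeq2, 15 with a surrogate variable and 24 without *Atm*-WT 32M and *Atm*-KO 12M together, an alternative chosen after seeing the data. Leaving out each mouse in turn gave 1 to 27, the most without *Atm*-WT 13M. Of the members, 0 were called (11 at an unadjusted p under 0.05), against 2 by DESeq2 (*Perp* and *Pmaip1*) and 1 without a filter (*Cdkn1a*, adjusted p = 0.049974), and 0 without any mouse. The 8 members lower at an unadjusted p under 0.05 became 5 with library size alone and 4 to 8 without each mouse, and the 3 higher members became 1 without *Atm*-WT 32M and *Atm*-KO 12M. The 4 members without overlap became 8 without that pair and 4 to 9 without each mouse (8 without *Atm*-WT 7M or 13M, 9 without *Atm*-KO 7F or 11M), where fewer mice make overlap rarer. The median of the members, -0.1393, was -0.0943 with library size alone and -0.0967 with protein-coding genes alone. *Mdm2* changed sign with library size alone (0.0243), with protein-coding genes alone (0.0162), without *Atm*-WT 13M (0.0005) and without *Atm*-KO 7F (0.0080), over a range of -0.0644 to 0.0080 without each mouse. *Bax* changed sign without *Atm*-WT 13M (-0.0074, range up to 0.0901). The causes were not tested.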
